A study of Homo sapiens with 2 samples.

Results

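The proteasome genes were described in 2 RNA sequencing libraries of BT549, a human cell line from a triple-negative breast cancer. The shSIK2 culture carried a hairpin that targets the salt-inducible kinase SIK2, and the scrambled culture carried a control hairpin. Wnt3a had been added to both cultures for 2 h, so neither library shows cells without the ligand. Each group held 1 library, and the number of hairpins or clones behind each culture was not given in the sources used here. Members were all protein-coding genes of GENCODE release 29 whose symbol starts with PSMA, PSMB, PSMC, PSMD, PSME or PSMF followed by a digit. The rule found 45 of the 58735 genes in the tables. Of these, 44 encode proteasome subunits, regulators or assembly chaperones. The other member, PSMC3IP, matched by its letters alone and encodes a recombination factor.

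The 26S proteasome degrades proteins that carry ubiquitin chains. Its 20S core is a barrel of alpha rings around beta rings, and PSMB5, PSMB6 and PSMB7 carry the proteolytic sites. A 19S cap with an ATPase base and a lid receives, unfolds and deubiquitinates the substrate. Interferon induces the immune subunits PSMB8, PSMB9 and PSMB10, which replace the catalytic subunits in newly built cores, and the PA28 activator of PSME1 and PSME2. Immunoproteasomes are known for making peptides for MHC class I. The transcription factor NRF1, encoded by NFE2L1, raises transcription of proteasome subunit genes when proteasome activity is short.

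The deposited values are FPKM, reads per kilobase of exon on a common depth divisor. Whole reads could be recovered from them, 16347399 in the shSIK2 library and 18019225 in the scrambled library. The divisor was the same for both libraries, so ratios as deposited are not corrected for the difference between these totals. With that correction, called equal totals below, read ratios are 1.10 times as high. Since 1 library stood for each group, no value here was checked against replicates and none has a p-value. Intervals are exact (Clopper-Pearson) 95% intervals and cover counting error only. Genes that reached 1 FPKM in either library were taken as measured, which left 12866. Log2 ratios compare FPKM plus 0.1 in the shSIK2 library with that in the scrambled library, so ratios of low genes are understated. Fewer cells expressing a gene and less RNA per cell cannot be told apart in these bulk libraries. SIK2 stood at 3.56 FPKM in the shSIK2 library and 7.80 FPKM in the scrambled library, 2.19-fold lower (1.99 to 2.42). The mesenchymal marker VIM stood at 283.3 FPKM in the shSIK2 library and 260.3 FPKM in the scrambled library. ERBB2 was at 6.75 and 4.96 FPKM, in the same order, EPCAM and PGR had no reads in either, and ESR1 and CDH1 had at most 11 reads in a library. None of 10 leukocyte markers reached 1 FPKM. They summed to 39 reads in the shSIK2 library and 27 in the scrambled library, and CD3E, CD68, LYZ, CD79A and NKG7 had none in either.

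The proteasome genes did not move as one block. In the shSIK2 library the immune beta subunits PSMB8 and PSMB9 lay above their scrambled level, and PSMB10 had an interval that held 1. Many 19S subunits lay 1.3-fold to 1.8-fold below their scrambled level, and most measured 20S core subunits lay within 1.2-fold of it. These sizes are as deposited. At equal totals PSMD4 and PSMD7 were the only 19S subunits at least 1.5-fold lower. The base and lid median log2 ratios were then -0.27 and -0.41, and -0.14 and -0.32 after subtraction of GC and length medians. Of the 45 members 41 were measured. None was at least 2-fold higher or lower, where 11.0% of all measured genes were 2-fold higher and 8.28% were 2-fold lower. At 1.5-fold, 10 members (24.4%) were lower, against 21.3% of all measured genes, so their share was near the background. PSMB8 was the 1 member at least 1.5-fold higher (2.44%), against 19.7% of all measured genes. All members are protein-coding. Of the 10666 measured protein-coding genes 16.5% were 1.5-fold higher and 20.4% were 1.5-fold lower. At 2-fold these shares were 8.41% and 6.64%. The median log2 ratio was -0.16 over the measured members and -0.11 over all measured genes. When both libraries were scaled to equal totals, log2 ratios moved up by 0.14, which left 4 members at least 1.5-fold lower, PSME3, PSMD4, PSMD7 and PSMD5, where 15.8% of all measured genes were. The median of the members was then -0.015 and that of all measured genes 0.030. The median of all measured genes thus changed sign, and that of the members lay near 0, once the read totals were corrected for. When the medians by GC content and exon length were subtracted, 5 members were at least 1.5-fold lower, where 16.7% of all measured genes were. These were PSMD4, PSME3, PSMB6, PSMD8 and PSMD3, so PSMD4 and PSME3 alone were lower by this measure under both settings. PSMB8 was the 1 member at least 1.5-fold higher under both, against 24.0% of all measured genes at equal totals and 20.7% after the subtraction.

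**Figure D1:**
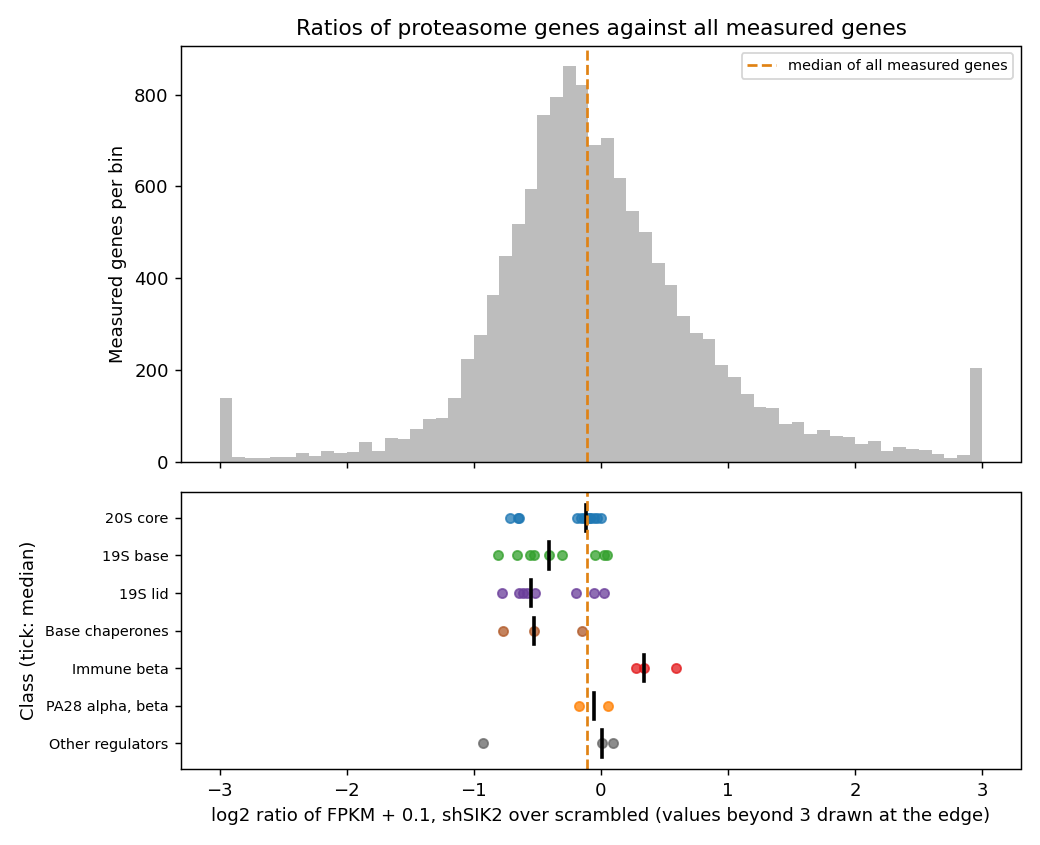
The upper panel is a histogram of the log2 ratio of FPKM plus 0.1, shSIK2 over scrambled, for all 12866 measured genes, and the lower panel shows each measured proteasome gene as a point by class, with a black tick at the class median and values beyond 3 drawn at the edge. The lid and base medians of -0.55 and -0.41 lie left of the dashed median of all measured genes, the core median of -0.12 lies near it (at equal totals it turned to 0.020) and the 3 immune beta subunits lie to its right.

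The upstream sequences of the immune subunits show which of them carry interferon motif letters close to the start. The 250 bases before the RefSeq start are given 5′ to 3′ (GRCh38.p14). Capitals mark matches to the core letters of the interferon-stimulated response element (ISRE), GAAANNGAA, or of the antioxidant response element (ARE), TGACNNNGC, to which NRF1 and NRF2 bind, on either strand.
PSMB8: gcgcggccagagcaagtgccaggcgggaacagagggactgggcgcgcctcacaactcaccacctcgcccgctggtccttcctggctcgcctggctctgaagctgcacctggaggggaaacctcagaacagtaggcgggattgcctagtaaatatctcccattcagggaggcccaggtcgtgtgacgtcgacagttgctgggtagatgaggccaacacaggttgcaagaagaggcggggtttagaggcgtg
PSMB9: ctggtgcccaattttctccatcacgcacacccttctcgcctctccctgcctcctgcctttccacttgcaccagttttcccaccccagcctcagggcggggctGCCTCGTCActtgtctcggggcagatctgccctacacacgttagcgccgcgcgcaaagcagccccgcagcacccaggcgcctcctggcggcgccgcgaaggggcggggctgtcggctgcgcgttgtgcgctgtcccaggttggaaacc
PSMB10: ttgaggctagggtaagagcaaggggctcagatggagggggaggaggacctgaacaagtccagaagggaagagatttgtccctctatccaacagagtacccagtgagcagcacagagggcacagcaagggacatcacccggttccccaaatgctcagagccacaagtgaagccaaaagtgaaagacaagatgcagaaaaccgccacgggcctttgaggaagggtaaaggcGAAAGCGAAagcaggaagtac
PSME1: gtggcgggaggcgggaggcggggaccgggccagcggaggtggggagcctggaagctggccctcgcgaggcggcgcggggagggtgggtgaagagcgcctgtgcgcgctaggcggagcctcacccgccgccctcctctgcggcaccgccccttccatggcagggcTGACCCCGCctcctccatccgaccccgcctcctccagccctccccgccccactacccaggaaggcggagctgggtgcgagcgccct
PSME2: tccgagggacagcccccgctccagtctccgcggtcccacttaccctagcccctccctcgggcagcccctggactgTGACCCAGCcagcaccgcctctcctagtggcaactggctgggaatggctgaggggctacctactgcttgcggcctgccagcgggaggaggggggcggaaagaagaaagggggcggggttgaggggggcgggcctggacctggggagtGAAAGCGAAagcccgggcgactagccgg
These windows are chr6:32844680-32844929 on the minus strand (PSMB8), chr6:32853942-32854191 on the plus strand (PSMB9), chr16:67936851-67937100 on the minus strand (PSMB10), chr14:24135944-24136193 on the plus strand (PSME1) and chr14:24146611-24146860 on the minus strand (PSME2). PSMB10 and PSME2 held the same ISRE letters, GAAAGCGAA, starting 21 and 28 bases before the start. PSMB9, PSME1 and PSME2 held ARE letters, 148, 86 and 175 bases before it. The window of PSMB8 held neither. ISRE letters were found in 4 of the 40 members with a RefSeq promoter (10%), against 7.06% of 27305 promoters of this length. The other members with ISRE letters were PSMA4 and PSMB4. A match to these letters is not evidence of binding.

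PSMB8, the immune chymotrypsin-like subunit LMP7 (chromosome 6, 32840717 to 32844703 in GENCODE, GRCh38), had 17.0 FPKM in the shSIK2 library and 11.3 FPKM in the scrambled library. Its 876 and 579 reads gave a ratio of 1.51 (1.36 to 1.68), and its log2 ratio of 0.59 lay just past the 1.5-fold line. PSMB9, the immune subunit LMP2 that takes the place of PSMB6, had 3.49 FPKM in the shSIK2 library and 2.73 FPKM in the scrambled library. From 184 and 144 reads the ratio was 1.28 (1.02 to 1.60). PSMB10, the immune trypsin-like subunit MECL-1, had 1.51 FPKM in the shSIK2 library and 1.23 FPKM in the scrambled library, a ratio of 1.23 from 48 and 39 reads. That interval, 0.790 to 1.93, holds 1, so at this depth no difference was detectable for PSMB10, and its log2 ratio of 0.28 turned to -0.09 when GC and length medians were subtracted. All 3 immune beta subunits thus had more reads in the shSIK2 library, 1108 against 762 together, a ratio of 1.45 (1.33 to 1.60), where all genes together had a ratio of 0.907. Most of these summed reads, 876 and 579, were those of PSMB8. PSMB8 has 20.6% of its exon bases in exons of genes on the other strand, and whether the libraries were stranded was not given in the sources used here. On its own strand PSMB9 shares 5.66% of its exon bases with PSMB8-AS1, a long non-coding RNA with 25 reads in the shSIK2 library and 15 in the scrambled library.

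The PA28 activator genes, whose products cap the core and are induced by interferon together with the immune beta subunits, differed little. PSME1, which encodes PA28 alpha, had 91.0 FPKM in the shSIK2 library and 87.5 FPKM in the scrambled library, a ratio of 1.04 (0.987 to 1.10) from 2783 and 2674 reads. PSME2, which encodes PA28 beta, had 18.1 FPKM in the shSIK2 library and 20.4 FPKM in the scrambled library, a ratio of 0.887 (0.817 to 0.962) from 1110 and 1252 reads. The genes lie 4.4 kb apart on chromosome 14 and lay on either side of equality, with log2 ratios of 0.06 and -0.17. At equal totals these were 0.20 and -0.03, and those of PSMB8, PSMB9 and PSMB10 were 0.73, 0.48 and 0.41.

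Each immune beta subunit takes the place of 1 constitutive subunit, so the balance within each pair was compared per length. PSMB8 made up 16.2% (15.1 to 17.2) of the summed FPKM of PSMB8 and PSMB5 in the shSIK2 library, and 10.7% (9.87 to 11.6) in the scrambled library. PSMB9 made up 7.92% (6.81 to 9.15) of its pair with PSMB6 in the shSIK2 library, and 3.94% (3.32 to 4.63) in the scrambled library. PSMB10 made up 1.71% (1.26 to 2.26) of its pair with PSMB7 in the shSIK2 library, and 1.30% (0.923 to 1.77) in the scrambled library. In both libraries the constitutive subunit made up most of the PSMB8 and PSMB9 pairs. PSMB10 has 58.3% of its coding bases in exons of another gene of its strand, AC040162.1, and whether that bears on its level and share was not tested. The odds of an immune against a constitutive read were 1.61 times as high in the shSIK2 library for PSMB8 over PSMB5 (1.43 to 1.81) and 2.10 times as high for PSMB9 over PSMB6 (1.65 to 2.67). For PSMB10 over PSMB7 they were 1.33 times as high, with an interval of 0.848 to 2.09 that holds 1. These odds do not depend on the scaling between libraries. Per coding length the PSMB8 share was 23.6% in the shSIK2 library and 16.1% in the scrambled library, and the PSMB9 share 17.0% and 8.88%, so the shares rest on the length used while their order does not.

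**Figure D2:**
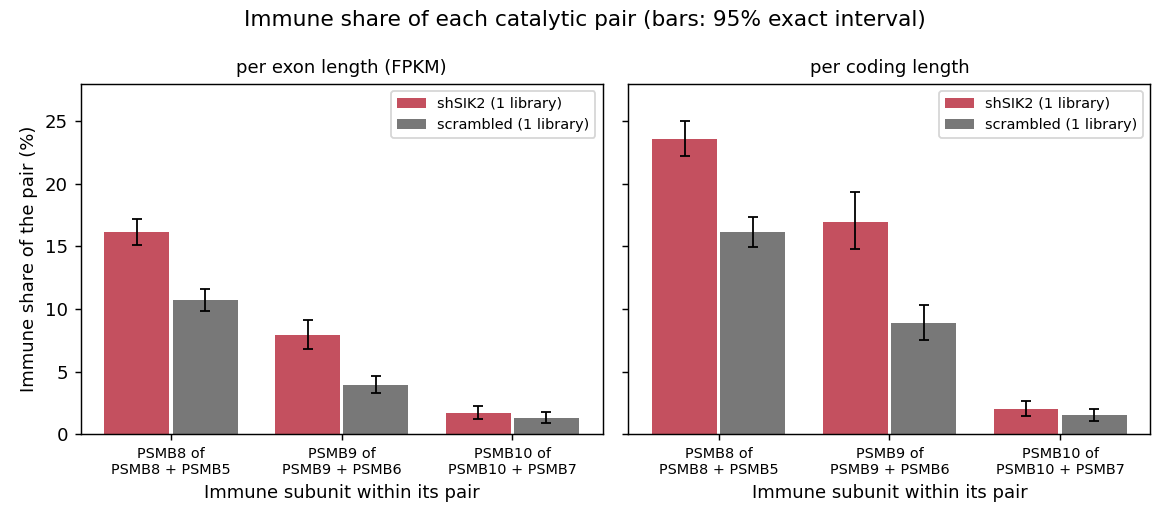
Bars give the share of the immune subunit within its catalytic pair, in percent, per exon length on the left and per coding length on the right, for the shSIK2 library (red) and the scrambled library (grey), with 95% exact intervals that cover counting error only. The PSMB8 and PSMB9 shares are higher in the shSIK2 library with intervals that do not meet, and the intervals of PSMB10, a gene with shared coding bases, overlap.

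The catalytic subunits of the constitutive core differed from each other. PSMB5, the chymotrypsin-like subunit, had 88.4 FPKM in the shSIK2 library and 93.8 FPKM in the scrambled library, a ratio of 0.942 (0.893 to 0.993). PSMB7, the trypsin-like subunit, had 86.7 FPKM in the shSIK2 library and 93.4 FPKM in the scrambled library, a ratio of 0.928 (0.880 to 0.979). PSMB6, the caspase-like subunit on chromosome 17, had 40.6 FPKM in the shSIK2 library and 66.7 FPKM in the scrambled library and was 1.64-fold lower (1.52 to 1.78). PSMB5 and PSMB7 thus lay near the ratio of all reads, 0.907, and PSMB6 lay below it. The log2 ratios behind the odds of the PSMB9 pair were thus 0.34 for PSMB9 and -0.71 for PSMB6, of which that of PSMB6 was the larger in size.

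Among the 4 non-catalytic beta subunits PSMB1 stood apart. It had 36.9 FPKM in the shSIK2 library and 57.8 FPKM in the scrambled library, 1.57-fold lower (1.47 to 1.68). PSMB4, the highest of them, had 98.7 FPKM in the shSIK2 library and 110.0 FPKM in the scrambled library, 1.11-fold lower (1.07 to 1.17). PSMB3 had 77.2 FPKM in the shSIK2 library and 88.0 FPKM in the scrambled library, and PSMB2 had 24.3 and 26.6 FPKM in the same order. Their log2 ratios of -0.19 and -0.13 lay close to the median of all measured genes. In the alpha ring, which gates the core, PSMA4 had 18.3 FPKM in the shSIK2 library and 28.7 FPKM in the scrambled library, 1.57-fold lower (1.49 to 1.66). PSMA3 had 29.8 FPKM in the shSIK2 library and 31.6 FPKM in the scrambled library, PSMA5 had 17.5 and 17.9 FPKM, and PSMA1 had 5.21 FPKM in both. The intervals of PSMA3, PSMA7, PSMA5 and PSMA1 each held 1, with log2 ratios between -0.09 and 0.00. PSMA7 was the highest member in both libraries, at 127.6 FPKM in the shSIK2 library and 132.3 FPKM in the scrambled library. Over the 12 measured core subunits the median log2 ratio was -0.12, which turned to 0.020 at equal totals and to 0.011 after subtraction of GC and length medians. At least 1.5-fold lower were 3 (25%, against 21.3% of all measured genes), PSMB6, PSMA4 and PSMB1, none at equal totals and PSMB6 alone after that subtraction. After PSMB6, PSMA4 and PSMB1 the next core subunit was PSMB3 at -0.19, so no core subunit had a log2 ratio between -0.65 and -0.19. After that subtraction PSMB1, PSMA4 and PSMB3 lay in this gap, at -0.42, -0.31 and -0.21.

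PSMA6 and PSMA2, which encode essential alpha subunits, stood below the minimum in both libraries. PSMA6 had 0.636 FPKM in the shSIK2 library and 0.716 FPKM in the scrambled library, and PSMA2 had 0.611 and 0.688 FPKM in the same order. In the GENCODE annotation 70.4% of the coding bases of PSMA6 and 97.1% of those of PSMA2 also lie in exons of another gene of the same strand, AL121594.1 and AC010132.3. These other genes had 1 read in each library (AL121594.1) and none (AC010132.3). Of the 42 proteasome genes other than the tissue-restricted ones, 5 had at least 50% of their coding bases in such exons, PSMA6, PSMA2, PSMA1, PSMB10 and PSMD9. The 5 ranged from 0.611 to 5.21 FPKM in the shSIK2 library and from 0.688 to 5.21 FPKM in the scrambled library. The other 37 had medians of 20.6 FPKM in the shSIK2 library and 28.7 FPKM in the scrambled library, with lowest values of 3.49 and 2.73 FPKM, both of PSMB9. Whether reads in shared exons were left out of the counting was not tested, and a level of any of these 5 genes beside another subunit, as in the PSMB10 and PSMB7 pair, carries that limit. PSMA8, the testis alpha subunit, and PSMB11, the thymus beta subunit, had no reads in either library, which allows up to 3 reads each.

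**Figure D3:**
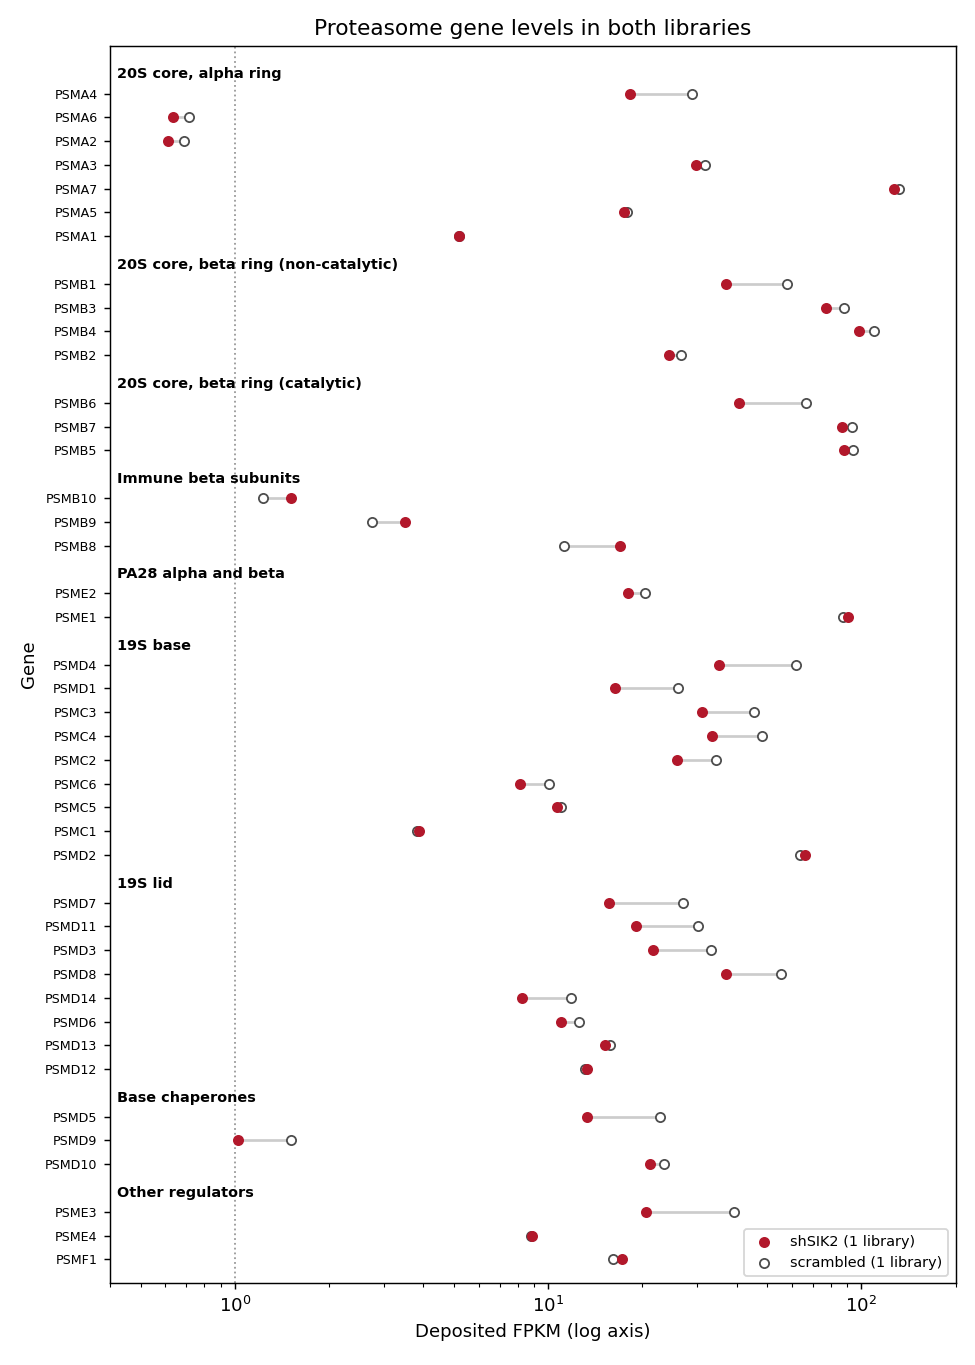
Each row is a proteasome gene and the horizontal log axis gives its deposited FPKM, with a filled red point for the shSIK2 library, an open point for the scrambled library and a dotted line at the minimum of 1 FPKM; PSMA8 and PSMB11, at 0 reads, are not drawn. PSMA7 and PSMB4 are the highest genes in both libraries, PSMA6 and PSMA2 lie left of the minimum, and red points lie left of open points for most base and lid genes and right of them for the 3 immune beta genes.

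The 19S base unfolds substrates with its ring of ATPases and binds ubiquitin chains. Over its 9 measured members the median log2 ratio was -0.41, a difference of -0.30 from all measured genes, and 2 of 9 (22.2%) were at least 1.5-fold lower, near the 21.3% of all measured genes. At equal totals PSMD4 alone was. PSMD4, the ubiquitin receptor Rpn10, had 35.2 FPKM in the shSIK2 library and 61.7 FPKM in the scrambled library, 1.75-fold lower (1.65 to 1.86). PSMD1, the scaffold Rpn2, had 16.4 FPKM in the shSIK2 library and 25.9 FPKM in the scrambled library, 1.58-fold lower (1.48 to 1.69). PSMD2, the scaffold Rpn1, had 65.9 FPKM in the shSIK2 library and 63.7 FPKM in the scrambled library, a ratio of 1.04 (0.999 to 1.07) from 6171 and 5961 reads. The intervals of PSMD1 and PSMD2, the large scaffolds of the base, were far apart. Of the ATPases none was 1.5-fold lower, with PSMC3, PSMC4, PSMC2 and PSMC6 1.47-fold, 1.44-fold, 1.33-fold and 1.24-fold lower. PSMC3 had 30.9 FPKM in the shSIK2 library and 45.6 FPKM in the scrambled library, and PSMC4 had 33.4 and 48.1 FPKM in the same order. PSMC2 had 25.9 FPKM in the shSIK2 library and 34.4 FPKM in the scrambled library, and PSMC6 had 8.12 and 10.05 FPKM. PSMC5, at 10.7 FPKM in the shSIK2 library and 11.0 FPKM in the scrambled library, and PSMC1, at 3.87 and 3.81 FPKM, had intervals that held 1. PSMC1 has 75.8% of its exon bases in exons of genes on the other strand. The base median was -0.27 at equal totals and -0.14 after subtraction of GC and length medians.

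The lid removes ubiquitin chains before degradation. Its 8 members had a median log2 ratio of -0.55, a difference of -0.44 from all measured genes, and 3 of 8 (37.5%) were at least 1.5-fold lower, against 21.3% of all measured genes. At equal totals PSMD7 alone was, and after subtraction of GC and length medians PSMD8 and PSMD3 were. PSMD7, the partner of the deubiquitinase in the lid (Rpn8), had 15.7 FPKM in the shSIK2 library and 27.0 FPKM in the scrambled library, 1.72-fold lower (1.57 to 1.89). PSMD11, the scaffold Rpn6, had 19.1 FPKM in the shSIK2 library and 30.0 FPKM in the scrambled library, 1.57-fold lower (1.49 to 1.65). PSMD3, the scaffold Rpn3, had 21.7 FPKM in the shSIK2 library and 33.1 FPKM in the scrambled library, 1.53-fold lower (1.44 to 1.62). PSMD3 was the last member past the 1.5-fold line and PSMD8 the first one short of it, at log2 ratios of -0.61 and -0.58. PSMD8, the subunit Rpn12, had 37.0 FPKM in the shSIK2 library and 55.4 FPKM in the scrambled library. PSMD14, the deubiquitinase Rpn11, was 1.44-fold lower (1.33 to 1.56), at 8.25 FPKM in the shSIK2 library and 11.9 FPKM in the scrambled library. PSMD6, the lid subunit Rpn7, had 11.0 FPKM in the shSIK2 library and 12.6 FPKM in the scrambled library, a log2 ratio of -0.19. PSMD13 (Rpn9), at 15.2 FPKM in the shSIK2 library and 15.8 FPKM in the scrambled library, and PSMD12 (Rpn5), at 13.3 and 13.1 FPKM, had intervals that held 1. The lid thus held subunits on both sides of the median of all measured genes, and its own median was -0.41 at equal totals and -0.32 after subtraction of GC and length medians.

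Summed over each class, core subunits had 24769 reads in the shSIK2 library and 28981 in the scrambled library, a ratio of 0.855 (0.840 to 0.869). Base subunits had 15887 and 19864 reads, a ratio of 0.800 (0.783 to 0.817), and lid subunits had 12203 and 16786 reads, a ratio of 0.727 (0.710 to 0.744). The order of the classes from core to lid is that of their medians, and all 3 lie below the ratio of 0.907 over all genes. All 45 members took 0.397% of the reads of the shSIK2 library and 0.443% of those of the scrambled library. Of the 29 measured core, base and lid subunits, 12 had log2 ratios between -0.81 and -0.52, 15 had ratios between -0.19 and 0.05, and PSMC2 and PSMC6 lay between these ranges. The lower range held 3 core, 4 base and 5 lid subunits, and the upper range 9, 3 and 3. This split is that of the deposited scale. After subtraction of GC and length medians PSMD11, PSMB1, PSMD1, PSMA4, PSMB3 and PSMD14 lay between these ranges, from -0.44 to -0.21. The counting interval lay below 1 for 20 of the 29 and above 1 for none as deposited, and below 1 for 14 and above 1 for 4 (PSMA7, PSMA5, PSMD12 and PSMD2) at equal totals. Over all 41 measured members it lay below 1 for 25 (61.0%), against 42.9% of all measured genes, and above 1 for 2 (4.88%), PSMB8 and PSMB9, against 30.4%. At equal totals it lay below 1 for 17 of the 41 (41.5%), against 34.0% of all measured genes, and above 1 for 9 (21.95%), against 37.4%. Such counts favour genes with many reads, and the median level of measured members was 18.3 FPKM in the shSIK2 library and 26.6 FPKM in the scrambled library, where that of all measured genes was 5.56 and 5.90 FPKM.

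**Figure D4:**
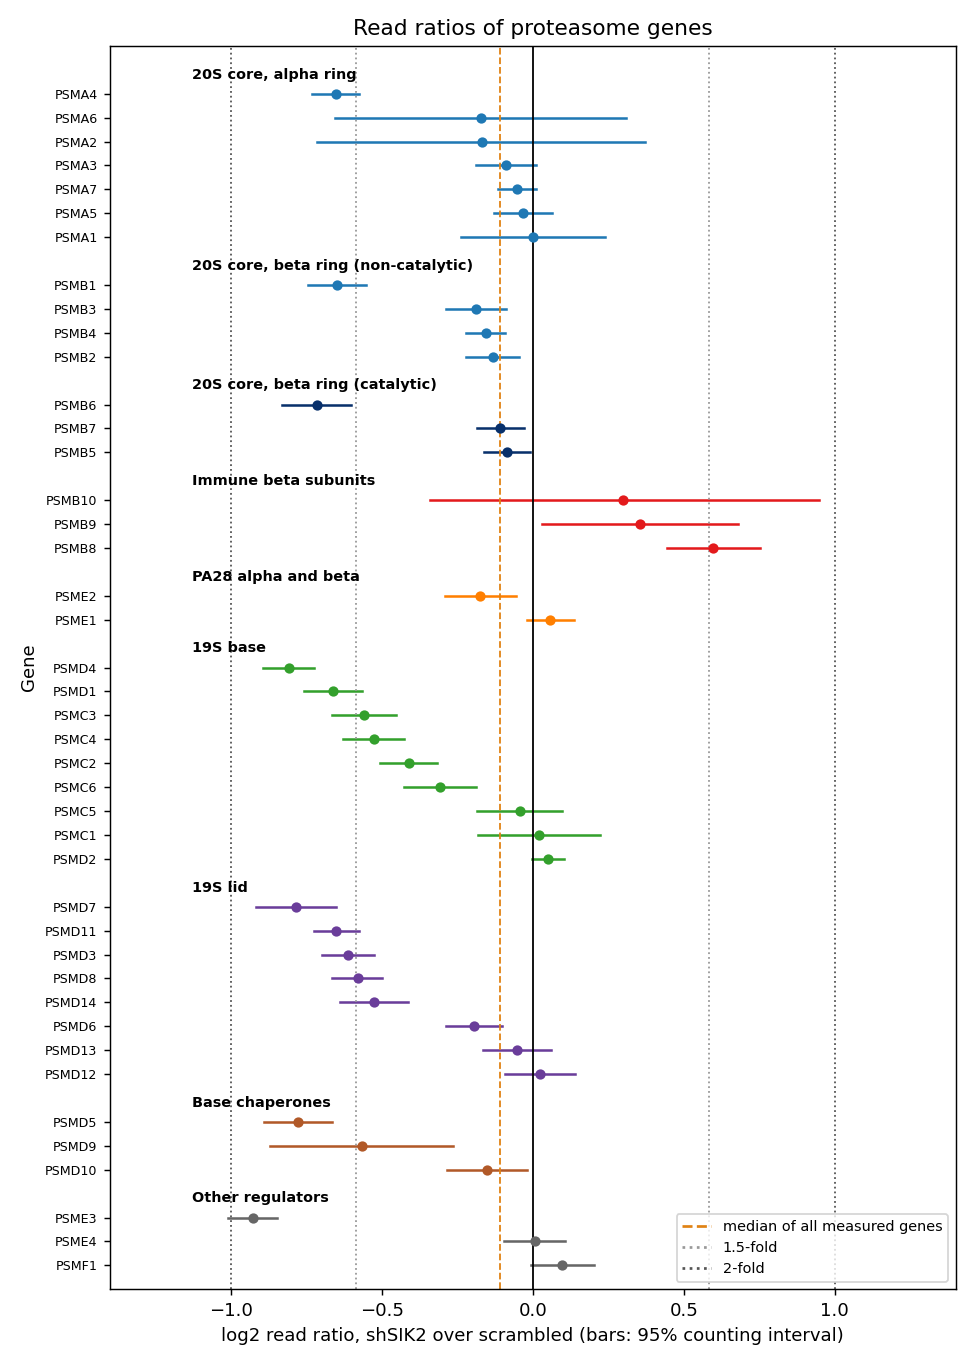
Each point is the log2 ratio of reads, shSIK2 over scrambled, of 1 proteasome gene with its 95% counting interval, grouped by class, with dotted lines at 1.5-fold and 2-fold and a dashed line at the median of all measured genes. No point lies past 2-fold, PSMB8 alone lies past 1.5-fold on the right, and base and lid genes spread from -0.81 to 0.05.

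Neighbouring members differed in how alike their ratios were. PSMB8 and PSMB9, whose gene bodies overlap on chromosome 6, were both higher, at log2 ratios of 0.59 and 0.34 with overlapping intervals. On chromosome 1 PSMD4 and PSMB4 lie 132 kb apart, with log2 ratios of -0.81 and -0.16. On chromosome 17 PSMB3 and PSMD3 lie 1217 kb apart, at -0.19 and -0.61. PSME3 and PSMC3IP lie 247 kb apart on the same chromosome, at -0.92 and 0.09. Across the 40 measured proteasome genes, which share both libraries, the rank correlation of the log2 ratio with GC content was 0.05, where it was 0.28 across all measured genes. The order of the levels was nearly the same in both libraries, with a rank correlation of 0.97 across the same 40 genes.

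Regulators outside the 26S particle held the largest difference of the family. PSME3, the nuclear activator PA28 gamma, which is not an interferon-induced gene, had 20.6 FPKM in the shSIK2 library and 39.2 FPKM in the scrambled library, 1.90-fold lower (1.80 to 2.02) from 1823 and 3469 reads. Its relatives PSME1 and PSME2, the interferon-induced PA28 genes, had ratios of 1.04 and 0.887, with which the interval of PSME3 shares no value. PSME4, the activator PA200, had 8.88 FPKM in the shSIK2 library and 8.84 FPKM in the scrambled library, a ratio of 1.004 (0.935 to 1.08). PSMF1, the inhibitor PI31, had 17.3 FPKM in the shSIK2 library and 16.1 FPKM in the scrambled library, a ratio of 1.07 (0.996 to 1.15). The chaperones that build the base were lower or level. PSMD5 had 13.3 FPKM in the shSIK2 library and 22.8 FPKM in the scrambled library, 1.71-fold lower (1.59 to 1.86). It was short of 1.5-fold at a log2 ratio of -0.49 after subtraction of GC and length medians. PSMD9 was 1.48-fold lower (1.20 to 1.83) from 154 and 228 reads, at 1.02 FPKM in the shSIK2 library and 1.51 FPKM in the scrambled library. PSMD10, gankyrin, at 21.2 and 23.5 FPKM in the same order, was 1.11-fold lower (1.01 to 1.22). At equal totals the log2 ratio of PSMD10 was -0.011. The counting intervals of PSME4 and PSMF1 then lay above 1, at log2 ratios of 0.14 and 0.24. PSMC3IP, the recombination factor, had 64 reads in the shSIK2 library and 60 in the scrambled library.

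Among members with a RefSeq promoter, PSMD3 and PSMD5 are those at least 1.5-fold lower whose upstream 250 bases held ARE letters, again in capitals, and those of PSMD3 also held the letters of the interferon gamma-activated sequence (GAS), TTCNNNGAA. The windows are chr17:39980557-39980806 on the plus strand for PSMD3 and chr9:120842923-120843172 on the minus strand for PSMD5 (RefSeq, GRCh38.p14).
PSMD3: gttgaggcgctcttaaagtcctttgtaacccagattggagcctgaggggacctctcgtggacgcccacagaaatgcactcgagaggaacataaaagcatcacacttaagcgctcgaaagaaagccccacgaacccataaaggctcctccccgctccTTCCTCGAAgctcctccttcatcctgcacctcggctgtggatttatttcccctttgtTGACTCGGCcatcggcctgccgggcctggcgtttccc
PSMD5: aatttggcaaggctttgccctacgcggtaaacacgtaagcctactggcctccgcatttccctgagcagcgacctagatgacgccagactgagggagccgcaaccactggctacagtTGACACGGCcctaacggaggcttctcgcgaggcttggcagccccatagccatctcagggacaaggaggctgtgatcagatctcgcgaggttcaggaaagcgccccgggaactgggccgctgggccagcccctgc
The ARE letters lay 37 bases before the start of PSMD3 and 134 bases before that of PSMD5. They were found in 9 of the 40 members with a RefSeq promoter (22.5%), against 11.0% of all promoters. The median log2 ratio was -0.17 over the 9 members with these letters and -0.15 over the 27 measured members without them. GAS letters were found in 5 of 40 (12.5%), against 6.78% of all promoters, and the heat shock letters TTCNNGAA in 2 of 40, PSMD6 and PSMD5 (5%, against 6.72%). CCAAT, the letters bound by NF-Y, was found in 18 of 40 (45.0%, against 33.04%). Both strands were searched, and matches to different motifs did not overlap in any member. ISRE letters went with a median of -0.16 over 4 measured members and -0.14 over 32 without them. For GAS letters the medians were -0.61 over 3 and -0.13 over 33, and for the heat shock letters -0.48 over 2 and -0.14 over 34. With CCAAT the median was -0.19 over 16 and without it -0.09 over 20. Whether any of these letters bears on the ratios was not tested.

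The other genes of the pathway were counted by the same log2 ratio. In the list of associated and shuttle factors 5 of 10 were at least 1.5-fold lower (50%, against 21.3% of all measured genes), none was 1.5-fold higher, and the median log2 ratio was -0.60. At equal totals and after subtraction of GC and length medians 2 of them were 1.5-fold lower, and the medians were -0.46 and -0.32. UBQLN4, a shuttle that brings ubiquitinated proteins to the proteasome, had 20.5 FPKM in the shSIK2 library and 53.4 FPKM in the scrambled library, 2.61-fold lower (2.45 to 2.77), the 1 gene of these lists past 2-fold among those measured. The shuttle RAD23B had 59.3 FPKM in the shSIK2 library and 96.7 FPKM in the scrambled library, 1.63-fold lower (1.57 to 1.69). USP14, a deubiquitinase of the 19S cap, was 1.60-fold lower (1.498 to 1.71). Of the 3 subunits named outside the PSM series, UCHL5, a deubiquitinase, was 1.80-fold lower (1.65 to 1.96), short of 1.5-fold at a log2 ratio of -0.495 after subtraction of GC and length medians, and its receptor ADRM1 had a ratio of 1.10 (1.02 to 1.19). SEM1, a small lid subunit, had a ratio of 0.875 (0.736 to 1.04). Of 6 core and base assembly factors 1 was at least 1.5-fold lower, PSMG1 at 1.62-fold (1.46 to 1.79), which passed neither at equal totals nor after subtraction of GC and length medians, while its partner PSMG2 had a ratio of 1.28 (1.13 to 1.44). PSMG4, of another pair of these chaperones, was 1.39-fold lower (1.23 to 1.58). The maturation factor POMP had 39.9 FPKM in the shSIK2 library and 42.8 FPKM in the scrambled library, with an interval that held 1.

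The genes that control proteasome transcription were divided. Of 6 genes of the NRF1 axis 2 were 1.5-fold lower or more and 1 was higher, against 21.3% and 19.7% of all measured genes, with a median log2 ratio of -0.22. The counts held at equal totals, and after subtraction of GC and length medians NFE2L2 no longer passed, at -0.43, and the median turned to 0.08. NFE2L1, which encodes NRF1, had 64.0 FPKM in the shSIK2 library and 127.0 FPKM in the scrambled library, 1.98-fold lower (1.93 to 2.05) from 6397 and 12697 reads, and its log2 ratio of -0.99 lay just short of 2-fold. NFE2L2, which encodes NRF2, had 31.5 FPKM in the shSIK2 library and 52.4 FPKM in the scrambled library, 1.67-fold lower (1.60 to 1.74). DDI2, the protease that releases NRF1 from the endoplasmic reticulum membrane, was 1.41-fold lower (1.31 to 1.51). SYVN1, the ubiquitin ligase that marks NRF1 at that membrane, had 15.9 FPKM in the shSIK2 library and 9.24 FPKM in the scrambled library, a ratio of 1.72 (1.58 to 1.87). Of the 6 ubiquitin and E1 genes none passed 1.5-fold as deposited, 1 was higher at equal totals and after subtraction of GC and length medians, and the median was 0.06. UBB, a stress-inducible polyubiquitin gene, had a ratio of 1.01 (0.961 to 1.07). UBA6, an E1 enzyme, was 1.395-fold lower (1.32 to 1.48).

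Interferon regulators of the immune subunits did not share a direction either. IRF1, which drives PSMB9 transcription, had 8.83 FPKM in the shSIK2 library and 11.2 FPKM in the scrambled library, 1.27-fold lower (1.17 to 1.37). STAT2 had 6.39 FPKM in the shSIK2 library and 3.47 FPKM in the scrambled library, a ratio of 1.84 (1.62 to 2.10). NLRC5, the activator of MHC class I genes, had a ratio of 1.55 (1.27 to 1.89) from 255 and 165 reads, with a log2 ratio of 0.57, short of 1.5-fold on that scale. IRF9 lay below the minimum in both libraries, with 58 and 27 reads, a ratio of 2.15 (1.34 to 3.53). Of the 5 measured regulators 1 (20%) was at least 1.5-fold higher on the log2 scale used, near the 19.7% of all measured genes, and none was lower. At equal totals 2 were higher, STAT2 and NLRC5.

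TAP1, a subunit of the peptide transporter, starts 488 bases from PSMB9 on the opposite strand. TAP1 had 9.96 FPKM in the shSIK2 library and 6.05 FPKM in the scrambled library, a ratio of 1.65 (1.47 to 1.84), so both genes of this divergent pair had more reads in the shSIK2 library. The 250 bases before TAP1 held overlapping ISRE letters, 133 and 127 bases from its start. These letters lie between the starts of TAP1 and PSMB9, outside the 250 bases searched before PSMB9. TAP2, the partner of TAP1 in the transporter, had 4.41 FPKM in the shSIK2 library and 6.57 FPKM in the scrambled library and was 1.49-fold lower (1.32 to 1.67). B2M, the light chain of MHC class I, had 101.2 FPKM in the shSIK2 library and 159.5 FPKM in the scrambled library and was 1.58-fold lower (1.54 to 1.62). TAPBP, which helps to load peptides, had a ratio of 1.39 (1.32 to 1.46). Of 5 measured antigen processing genes 1 was 1.5-fold higher or more and 1 was lower (20% each), near the background of 19.7% and 21.3%, with a median log2 ratio of -0.15. At equal totals TAP1 and TAPBP were higher and B2M no longer passed, at -0.52.

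**Figure D5:**
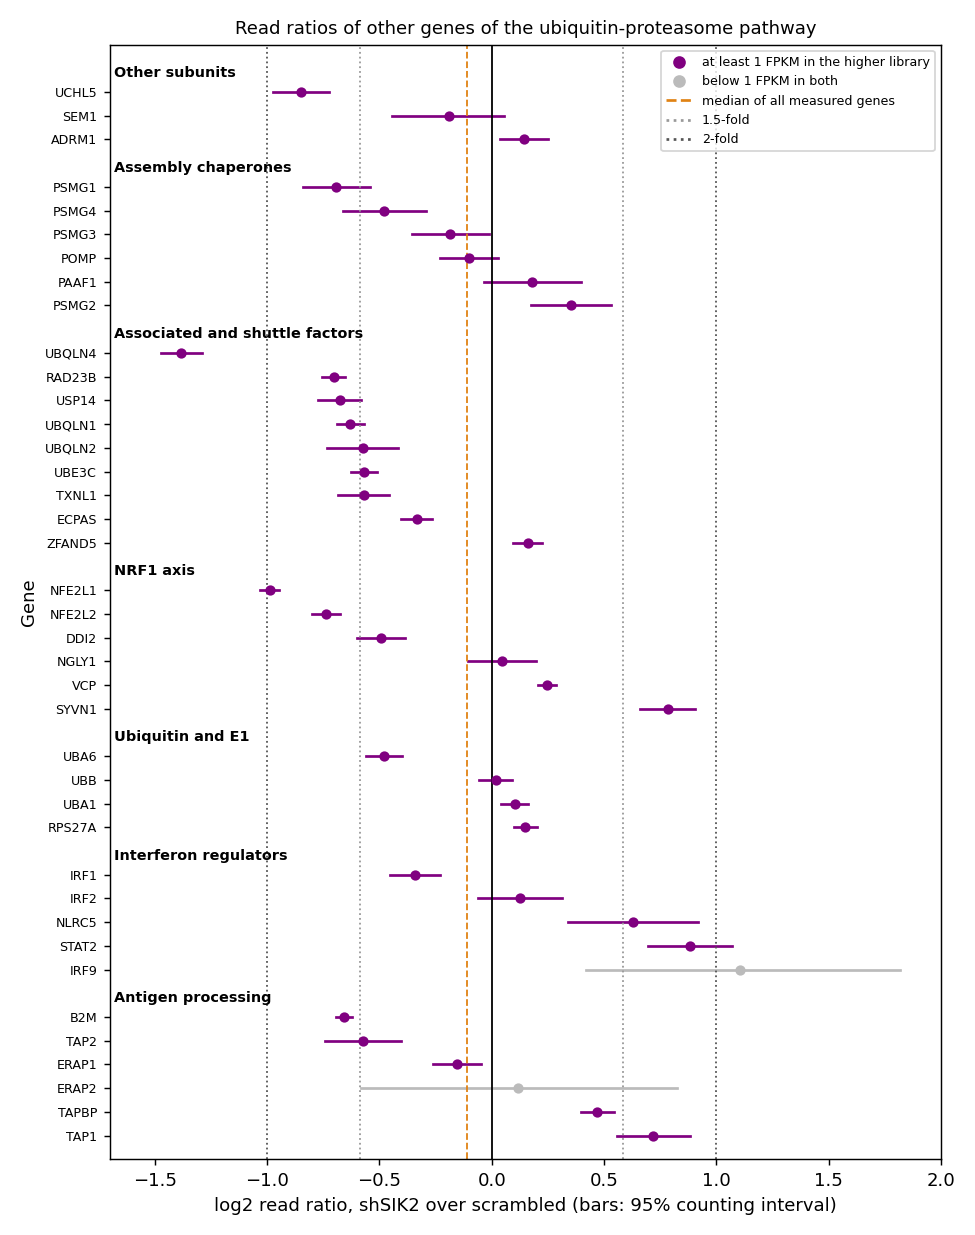
Each point is the log2 ratio of reads, shSIK2 over scrambled, of 1 gene that acts with the proteasome or regulates it, with its 95% counting interval, grouped by list, with some list members not drawn, and grey points are genes below 1 FPKM in both libraries. UBQLN4 alone lies past 2-fold on the left, NFE2L1 lies on the 2-fold line, all associated and shuttle factors drawn except ZFAND5 lie left of 0, and TAP1, NLRC5, STAT2 and SYVN1 lie past 1.5-fold on the right, with the grey point of IRF9 past 2-fold.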

How the data were processed

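RNA sequencing was done on total RNA extracted with Trizol and prepared by standard Illumina methods, per the labels' protocols. The submitters' processing notes name HISAT2 2.0.5 and hg18; which counter, annotation and FPKM formula were used was not given in the sources used here. The authors deposited FPKM per Ensembl gene, per the file headers, 1 table per library. All 58735 identifiers matched GENCODE release 29 (GRCh38), the source of symbols, lengths and gene coordinates; which build was aligned to was not settled. FPKM times exon length gave whole multiples of 58.3 in both tables (100% of values above 0, tolerance 0.001), taken as reads. The log2 scale, counting intervals and trend removal (20 bins each of GC content and exon length) were computed here with Python 3.11.15, numpy 2.4.6, pandas 2.3.3 and scipy 1.17.1, and tested on simulated data. Promoter sequences are from RefSeq (GRCh38.p14); 40 of 45 members matched, without PSMA7, PSMB1, PSMB6, PSMB7 and PSMD4. Read totals limit precision, and without molecular identifiers reads are no independent molecules. Members, gene lists, motifs and alternatives were chosen with earlier results of these data known. All members were described; of each other list the members with the largest ratios were named, and further ones after their values were seen. Some list members are not reported here by name; they stay in the counts and medians.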

Additional observations from a re-analysis of the deposited data

How the results depend on the processing

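No paired analysis was possible because each group held 1 library, and no replicate could be left out. Equal totals turned the median log2 ratio of the 20S core to 0.020 and that of all measured genes to 0.030, and moved those of all members to -0.015, of the base to -0.27, of the lid to -0.41 and of the immune subunits (PSME1 and PSME2 included) to 0.41 from 0.28; 4 members were then at least 1.5-fold lower. Subtracting GC and length medians gave 0.0099 for all members, 0.011 for the core, -0.14 for the base, -0.32 for the lid, 0.12 for the immune subunits and 0 for all genes, with 5 members at least 1.5-fold lower; the cause was not tested. With a pseudocount of 1 no member was at least 1.5-fold higher (0), the immune median was 0.17, and 760 genes passed 2-fold on the higher side and 621 on the lower, against 1414 and 1065. Without a filter 4008 and 2619 genes passed 2-fold, 6648 and 5246 passed 1.5-fold, higher first, against 2541 and 2735, and the median of all genes was 0. With a minimum of 5 FPKM these were 430 and 551, and 952 and 1783, and the immune median, then over PSMB8, PSME1 and PSME2, was 0.058. Shares of reads not scaled for length were 24.7% (shSIK2) and 16.9% (scrambled) for PSMB8 and 15.4% and 7.996% for PSMB9, and shares per coding length, chosen after seeing the data, 23.6% and 16.1%, and 17.0% and 8.88%. The pseudocount of 0.01, adding the reads of 32 same-named pseudogenes (84 and 91 reads) and leaving out the 5 genes with shared coding bases, also chosen after seeing the data, kept all counts and medians of members within the limits used (1.5 times, or 0.1 on the log2 scale). Depth limits PSMB10, PSMA6 and PSMA2, whose intervals hold 1. The immune median was the value of PSMB10 itself as deposited and at equal totals. Without the genes with shared coding bases, PSMB10 among them, it was 0.20 as deposited. Counts of intervals at equal totals, and the counts of the other lists under both settings, were added after seeing the data.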
